A study of Arabidopsis thaliana with 53 samples.

Results

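The leaf transcriptomes of 2 dwarf lines of Arabidopsis thaliana were set directly against each other. The members were every plant that the sample labels give as BR-like dwarf (brassinosteroid-like dwarf, 6 plants) or as short-internode dwarf (6 plants), 12 of the 53 libraries of the series. Both lines descend from Col-0 seed germinated on 160 µM etoposide, a drug that traps topoisomerase II on broken DNA. BR-like dwarf plants were of generation M3 of line 1A, 3 from M2 family 1A_14 (replicates 1 to 3) and 3 from 1A_20 (replicates 4 to 6). Short-internode dwarf plants were of generation M3 of line 34C, 3 from 34C_6 (replicates 1 to 3) and 3 from 34C_7 (replicates 4 to 6). Levels are also given for 17 plants without a dwarf phenotype, namely 4 relatives of the BR-like dwarf (M3, family 1A_4, etoposide-descended), 4 relatives of the short-internode dwarf (M3, family 34C_9, etoposide-descended) and 9 plants whose ancestors grew on DMSO, the solvent (0 µM etoposide), which the labels give as generation M2. Each library is polyadenylated RNA of rosette leaf of a single plant. Each line goes back to 1 treated M1 plant, so the phenotype and everything else carried by the line cannot be told apart, and the relatives come from other M2 families than the dwarfs. In its long-read sequencing the study placed an inversion of chromosome 2 in line 1A, with one end in the transcribed leader of AS1 and the other near AT2G33720, and an inversion, an insertion and a deletion on other chromosomes in line 34C.

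AS1 encodes a MYB protein that acts with AS2, a protein of the LOB domain family, to keep class I KNOX genes off in leaves. The class I KNOX genes (STM, KNAT1, KNAT2 and KNAT6) encode homeodomain proteins that hold shoot meristem cells undifferentiated, and they bind DNA together with partners of the BELL family. Organ boundary genes such as LOB, BOP1, BOP2 and the CUC genes mark the narrow band of cells between meristem and leaf, at the leaf base. RNA polymerase III, whose largest subunit is NRPC1, makes transfer RNAs and 5S ribosomal RNA, and MAF1 is its repressor.

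Library totals were 41982793 to 56126567 counts in the BR-like dwarf (median 48219898) and 39631454 to 61035666 in the short-internode dwarf (median 49284004). Levels are printed as CPM, counts scaled to the library total after TMM normalization, and are not corrected for gene length. Leaf mesophyll markers summed to 18460 to 34480 CPM in the BR-like dwarf (median 21280) and to 20690 to 41660 in the short-internode dwarf (median 33450). All 6 were detected in both, and 5 had a lower fitted level in the BR-like dwarf (none called by edgeR). Of the 3 stem cell markers of the shoot meristem, CLV3 and WUS had no counts in any of the 12 plants. The third, CLV1, was detected, at 54.2 to 119 CPM (median 80.7) against 68.5 to 85.2 (median 78.2). Its fitted log2 fold change was 0.12, and it was not called. Floral markers summed to 2.55 to 8.03 CPM (median 4.41) against 0.788 to 3.99 (median 1.12), and the 3 tested, AP3, SEP3 and AG, had fitted log2 fold changes of 2.46, 1.73 and 0.21 (none called by edgeR).

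Before the results, 2 libraries have to be set apart. BR-like dwarf replicate 4 (family 1A_20) resembled the other dwarf more than its own: over the 19099 tested genes its Pearson correlation of log2(CPM + 1) had a median of 0.982 with the short-internode plants (0.979 to 0.985) and of 0.965 with the other BR-like dwarf plants (0.948 to 0.974). For the other 5 BR-like plants the median with their own group was the higher one. In AS1 and NRPC1, however, replicate 4 lay with the BR-like dwarf (11.02 and 12.4 CPM). Short-internode dwarf replicate 2 carried 88 genes at more than 4 times the highest of the other 11 plants, led by pollen genes such as the pectinesterase gene VGD1 (41.1 CPM against at most 0.047 elsewhere), of which 6 were tested and 0 were called (edgeR). The study's methods state that some libraries were left out as outliers, and whether these 2 are among them is not given in the sources used here. Where leaving out replicate 4 changed a call described here, that is said beside it.

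**Figure D1:**
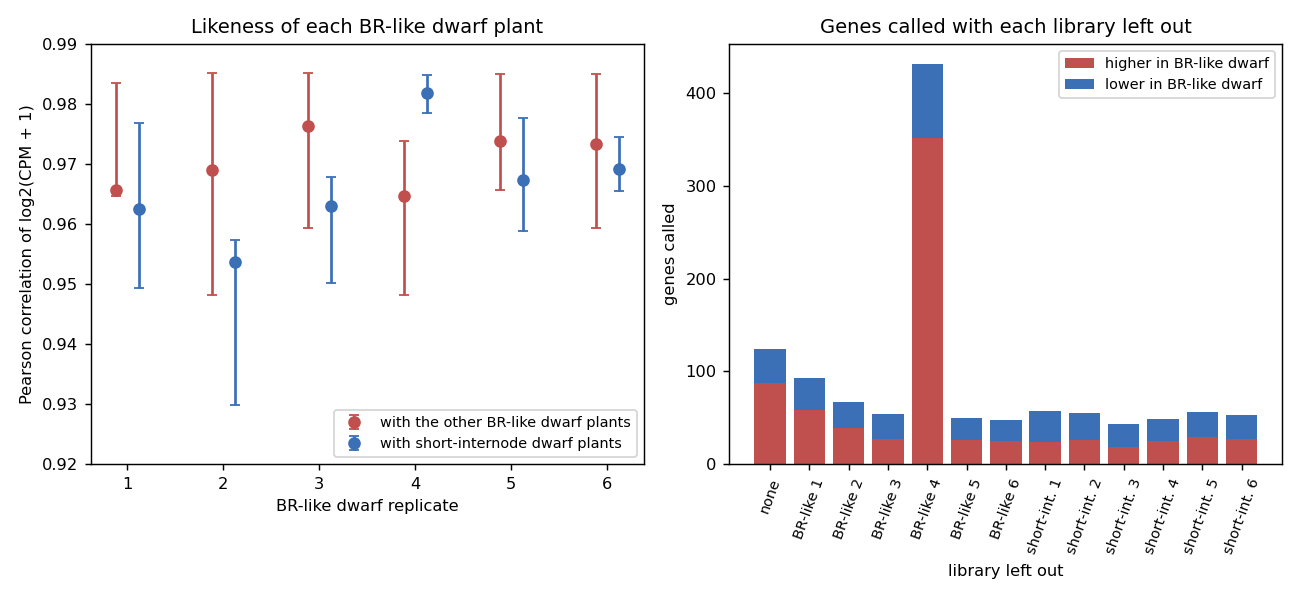
Left, Pearson correlation of log2(CPM + 1) over tested genes for each BR-like dwarf plant with the other 5 plants of its group (red) and the 6 short-internode dwarf plants (blue), as median and range. Right, number of genes called with no library and with each library left out, stacked by direction; the count was 124 with all 12 plants and 431 without BR-like dwarf replicate 4.

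Of 19099 genes tested, 124 were called (0.649%; edgeR's quasi-likelihood test, Benjamini-Hochberg adjusted p below 0.01 and absolute log2 fold change above 1). Of these, 87 were higher in the BR-like dwarf (0.456%) and 37 were lower (0.194%). At an unadjusted p below 0.05 stood 4368 genes, and the median log2 fold change over all tested genes was 0.01. Without BR-like dwarf replicate 4 the call covered 431 of 19080 genes (2.26%), 351 higher and 80 lower. Leaving out any 1 other plant lowered the count, to 93, 67, 54, 50 and 48 without BR-like dwarf replicates 1, 2, 3, 5 and 6 and to 57, 55, 43, 49, 56 and 53 without short-internode dwarf replicates 1 to 6. The excess of higher calls was not stable: without any 1 short-internode plant 19 to 29 genes were called higher and 24 to 33 lower, and without BR-like dwarf replicate 3, 5 or 6 the counts were 27 and 27, 26 and 24, and 25 and 23. A fit on all 5 groups gave 101 higher and 17 lower, and 73 of these calls were among the 124. By DESeq2 545 genes passed, 379 of them higher in the BR-like dwarf, and by limma-voom 37, of which 9 were higher.

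In 470 tested genes (2.46%) the values of the 6 BR-like dwarf plants and the 6 short-internode plants did not overlap, and 82 of the 124 called genes were among them. Of the 87 genes called higher, 46 did not overlap, and in the other 41 replicate 4 was at or below the highest short-internode plant. It was below all 5 other BR-like plants in 78 of the 87. Of the 37 genes called lower, 36 did not overlap. The 17 plants without phenotype serve as a further reference. Over all tested genes the 6 BR-like plants lay wholly outside their range in 76 (0.398%) and the short-internode plants in 97 (0.508%). Among the 124 called genes these counts were 11 and 7, with no gene in common. With replicate 4 set aside, the 5 remaining BR-like plants lay outside that range in 57 of the 87 genes called higher and in 3 of the 37 called lower. Leaving out a plant can only keep or raise such a count. The share over all tested genes was not counted for the 5 plants, so these 2 counts have no baseline.

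**Figure D2:**
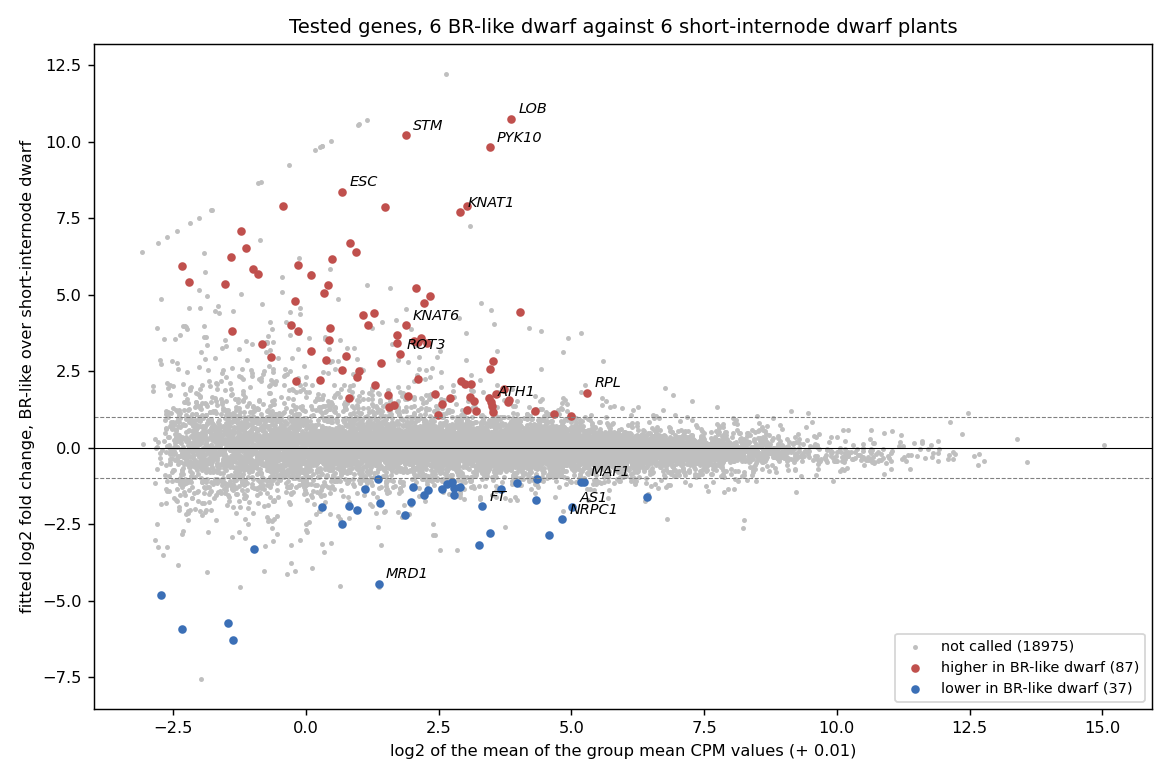
Fitted log2 fold change (BR-like over short-internode dwarf) against the log2 mean level of the 19099 tested genes, with the 87 genes called higher in the BR-like dwarf in red and the 37 called lower in blue; dashed lines mark a log2 fold change of 1 and -1. LOB, STM and KNAT1 lie near the top, and the boundary gene ATH1 (1.50) lies lower. AS1, NRPC1 and MAF1 lie among the genes of high level below the line.

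AS1 was lower in the BR-like dwarf. Its level was 8.36 to 19.9 CPM (median 12.8) in the BR-like plants and 34.4 to 69.1 (median 50.9) in the short-internode plants. The groups did not overlap, and the BR-like plants split further by family, with 14.6 to 19.9 CPM in 1A_14 and 8.36 to 11.02 in 1A_20. The log2 fold change was -1.95 ± 0.22 (SE, 6 against 6; edgeR, Benjamini-Hochberg adjusted p = 0.00084), and all 12 fits with 1 plant left out called it. Relatives of the BR-like dwarf had 60.1 to 102 CPM, relatives of the short-internode dwarf 14.8 to 55.9 and DMSO plants 35.2 to 114, so apart from the lowest short-internode relative (replicate 2) every plant of the other groups was above the BR-like dwarf. AS1 (AT2G37630, TAIR10.1 chr2:15781232-15783480) overlaps the end of the actin gene ACT1 on the other strand. ACT1 was at 10.8 to 17.8 CPM against 13.4 to 20.4 and was not called (log2 fold change -0.28 ± 0.15, adjusted p = 0.29 by edgeR and Benjamini-Hochberg). AS2, the partner of AS1, had 2.56 to 3.43 CPM in 5 BR-like plants, 0 in replicate 4 and 0.0886 to 0.375 in the short-internode plants. It was not called with all plants (log2 fold change 3.24 ± 0.74, adjusted p = 0.03, edgeR with Benjamini-Hochberg) and was called without replicate 4 (3.50, adjusted p = 6.1e-05).

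The bases just upstream of AS1 are shown because an inversion that ends in the leader of the gene parts them from it, and those of KNAT1, STM and LOB because these genes moved together. Each run holds the 250 bases before the annotated start in the TAIR10.1 assembly of RefSeq, 5′ to 3′ on the strand of the gene, which is the minus strand for all 4. They come from chr2:15783481-15783730 (AS1), chr4:5151160-5151409 (KNAT1), chr1:23062064-23062313 (STM) and chr5:25311020-25311269 (LOB). Capitals mark TGAC, the core bound by KNOX and BELL homeodomains, on either strand (TGAC or GTCA, which cannot overlap).
AS1: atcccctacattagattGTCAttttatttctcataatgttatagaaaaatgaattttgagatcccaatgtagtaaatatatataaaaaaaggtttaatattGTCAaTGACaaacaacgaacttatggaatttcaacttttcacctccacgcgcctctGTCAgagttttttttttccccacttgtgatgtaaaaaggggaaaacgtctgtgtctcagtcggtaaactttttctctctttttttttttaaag
KNAT1: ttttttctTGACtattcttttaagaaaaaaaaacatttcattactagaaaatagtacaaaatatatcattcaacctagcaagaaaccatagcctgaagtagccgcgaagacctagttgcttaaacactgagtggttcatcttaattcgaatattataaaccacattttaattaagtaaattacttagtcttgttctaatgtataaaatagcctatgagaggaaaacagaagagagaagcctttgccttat
STM: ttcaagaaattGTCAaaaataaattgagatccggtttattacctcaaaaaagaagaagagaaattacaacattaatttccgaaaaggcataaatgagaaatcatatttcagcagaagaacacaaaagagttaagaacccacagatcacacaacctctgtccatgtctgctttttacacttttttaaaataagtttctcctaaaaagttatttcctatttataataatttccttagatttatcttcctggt
LOB: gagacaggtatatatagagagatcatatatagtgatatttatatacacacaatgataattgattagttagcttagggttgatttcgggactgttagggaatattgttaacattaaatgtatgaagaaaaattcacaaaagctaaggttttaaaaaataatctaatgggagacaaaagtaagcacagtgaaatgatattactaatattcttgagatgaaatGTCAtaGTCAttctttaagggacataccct
The core occurs 4 times upstream of AS1, 2 times upstream of LOB and once each upstream of KNAT1 and STM. Of 27443 protein-coding genes, 75.5% hold it at least once in a window of the same length, so its presence sets none of these genes apart.

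All 4 class I KNOX genes had a higher fitted level in the BR-like dwarf, and 3 of them were called, a list that the study itself had named from these samples. KNAT1 had 14.4 to 20.2 CPM in 5 BR-like plants, 0.692 in replicate 4 and at most 0.224 in the short-internode plants. The groups did not overlap (log2 fold change 7.70 ± 0.93, edgeR, Benjamini-Hochberg adjusted p = 0.0013). STM, needed to found and keep the shoot meristem, had 6.74 to 10.15 CPM in 5 BR-like plants and 0 in replicate 4. Over the 6 short-internode plants it had 1 count against 2209, a ratio of 2290 with a 95% counting interval of 410 to 90400 (edgeR, Benjamini-Hochberg adjusted p = 0.0018). KNAT6, which acts beside STM at the boundary, had 4.84 to 11.6 CPM in 5 plants, 1.51 in replicate 4 and 0.0886 to 0.9147 in the short-internode plants, so that replicate 4 still lay above all of them (log2 fold change 4.01 ± 0.56, adjusted p = 0.0031 by edgeR and Benjamini-Hochberg). KNAT2, the closest relative of KNAT6, had 1.25 to 2.16 CPM in 5 plants and 0.0494 in replicate 4, within the short-internode range of 0 to 0.185. It was not called (log2 fold change 5.07 ± 0.97, edgeR, Benjamini-Hochberg adjusted p = 0.013) and was called without replicate 4 (adjusted p = 0.0011). In the 17 plants without phenotype none of the 4 genes exceeded 0.678 CPM, the highest value of KNAT6. Together with AS1 and AS2, 3 of 6 members were called higher and 1 lower, against 0.456% and 0.194% of all tested genes, and the median over the list was 4.54. The higher calls in this list depended on the tool: DESeq2 called 5 of the 6 members higher, whereas limma-voom called 0 higher. Both tools called 1 member lower, AS1. By limma-voom the adjusted p (Benjamini-Hochberg) was 0.2 for KNAT1, 0.3 for STM and 0.043 for KNAT6. STM also lost the edgeR call without short-internode dwarf replicate 1 (adjusted p = 0.027), and KNAT6 without replicate 3 or 6 of that group (0.01 and 0.011).

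**Figure D3:**
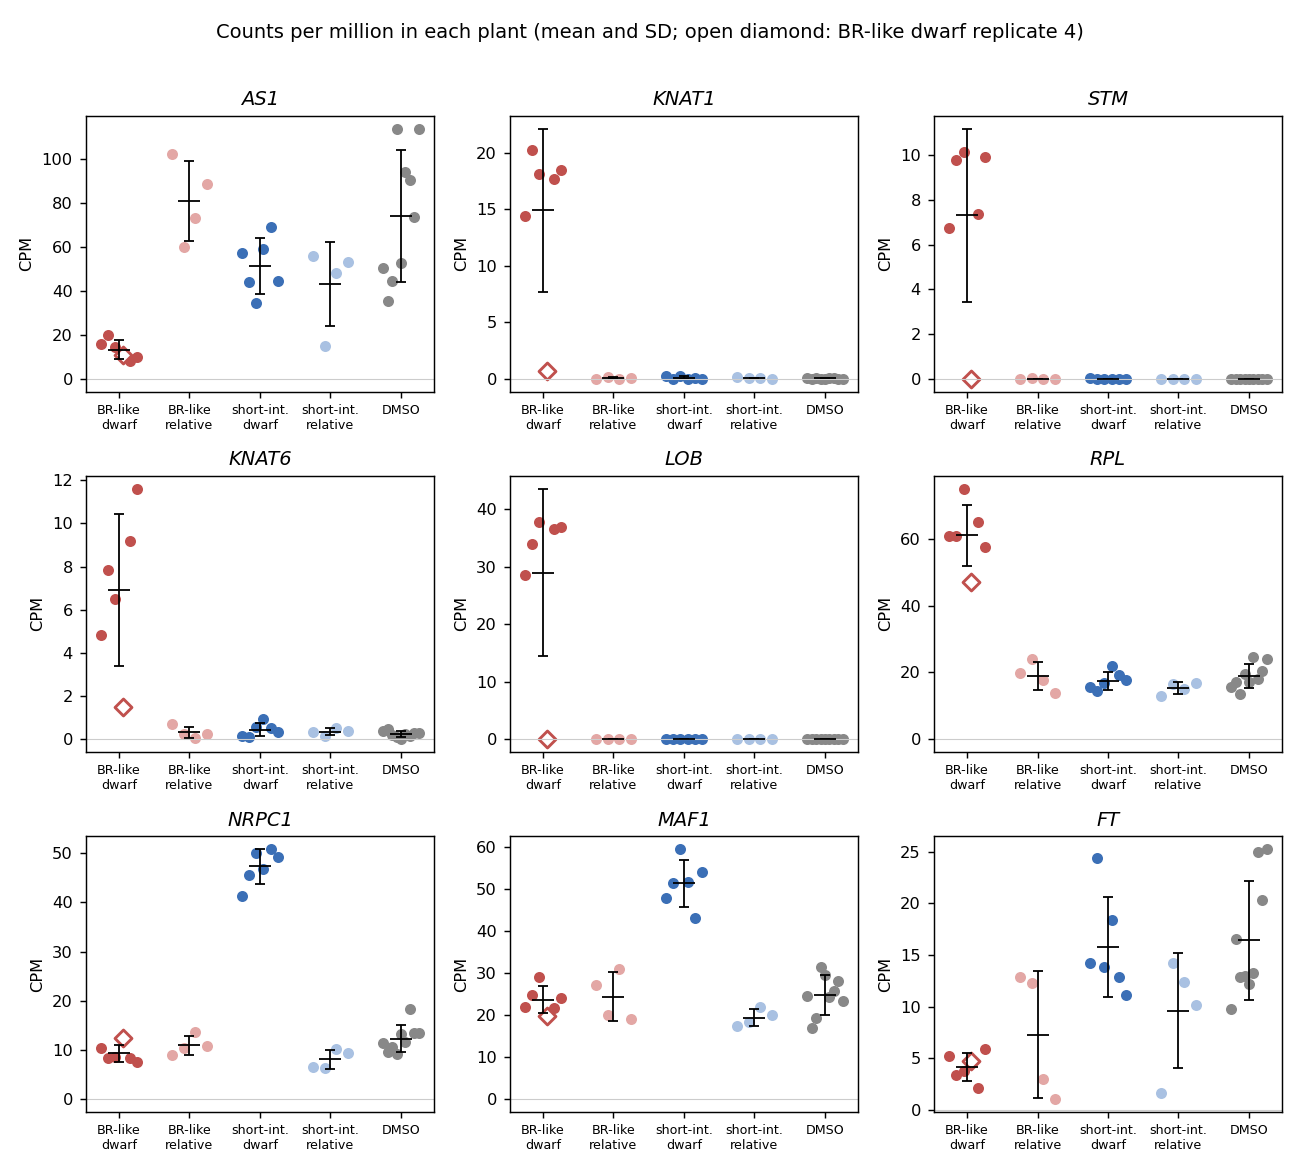
Level of 9 genes in each of the 29 plants of 5 groups, in CPM on linear axes from 0, with the mean and SD of each group; the open diamond is BR-like dwarf replicate 4. KNAT1, STM and LOB were above 6 CPM in 5 of the 6 BR-like dwarf plants and below 1 CPM in replicate 4 and all plants of the other groups, whereas NRPC1 and MAF1 stood high in the short-internode dwarf.

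Organ boundary genes followed the same plants. LOB, which gives its name to a family of plant DNA-binding proteins, had 28.6 to 37.8 CPM in 5 BR-like plants, 0 in replicate 4, and 4 counts in all in the short-internode plants against 8662. The fitted log2 fold change was 10.75 ± 1.37 (edgeR, Benjamini-Hochberg adjusted p = 0.0016). In the 17 other plants LOB did not exceed 0.0292 CPM. ATH1, a BELL homeodomain gene of the boundary and the rosette stem, had 11.1 to 23.2 CPM against 4.08 to 7.16, with no overlap and with replicate 4 as the lowest BR-like plant (log2 fold change 1.50 ± 0.18, adjusted p = 0.0014, edgeR with Benjamini-Hochberg). Its level ran from 2.89 to 27.7 CPM in the 17 plants without phenotype, a range that holds both dwarfs.

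The other boundary genes missed the call with all 12 plants. BOP1 and BOP2 are paired BTB-ankyrin genes that pattern the leaf base. BOP1 had 2.18 to 4.37 CPM in 5 BR-like plants, 0 in replicate 4 and no counts in the short-internode plants, which makes it at least 284-fold higher (floor of 3 counts over the group; edgeR, Benjamini-Hochberg adjusted p = 0.016). BOP2 had 9.94 to 14.2 CPM in 5 plants, 3.71 in replicate 4 and 0.939 to 4.52 in the short-internode plants (log2 fold change 2.04 ± 0.36, adjusted p = 0.01 by edgeR and Benjamini-Hochberg). CUC1 and CUC3, which set organ boundaries, had at most 0.885 and 1.01 CPM (log2 fold changes 2.95 and 4.56, not called). Without replicate 4 these 6 genes were called higher, and CUC2, which then passed the filter, was not called (0.22, adjusted p = 0.91 by edgeR and Benjamini-Hochberg). With all plants 2 of 6 tested were called, at a list median of 3.75, against 0.456% of all tested genes. The study itself had named LOB, BOP1 and BOP2 from these samples, and the list was chosen with that known. DESeq2 called all 6 and limma-voom 1 (LOB had an adjusted p of 0.54 by limma-voom and Benjamini-Hochberg). The remaining 3 of the 9 members, CUC2, LAS and MYB117, were too low to be tested with all plants.

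Among the partners and relatives of these genes 1 stood out. RPL, also called BLR or PENNYWISE, encodes a BELL homeodomain partner of STM and KNAT1. It had 47.1 to 75.1 CPM (median 60.9) in the BR-like dwarf and 14.3 to 22 (median 17.2) in the short-internode dwarf. All 6 BR-like plants, replicate 4 included, were above every other plant, since the 17 plants without phenotype had 12.8 to 24.5 CPM. The log2 fold change was 1.80 ± 0.12 (edgeR, Benjamini-Hochberg adjusted p = 1.3e-05). Of the 9 tested class II KNOX and BELL genes it was the 1 called, against 0.456% of all tested genes called higher. The list median was 0.10. KNAT5, a class II gene, had the lowest fitted value (-0.18) and BLH8 the highest (2.03, adjusted p = 0.048 by edgeR and Benjamini-Hochberg; 2.25 and 0.0078, called, without replicate 4). Leaf polarity genes, which set the upper and lower leaf face, had a median of 0.37 over 14 tested members and 0 calls by edgeR and by DESeq2. At an unadjusted p below 0.05 stood 8 of the 14, against 4368 of all 19099 tested genes (edgeR). The log2 fold changes of the 14 ran from -0.35 for YAB3 to 1.00 for ARF4, which had 21.8 to 72.9 CPM against 21.9 to 31.3, with replicate 4 as the lowest plant. Without replicate 4, ARF4 (1.15, adjusted p = 0.0014) and KAN2 (1.11, adjusted p = 0.0052) were called higher by edgeR with Benjamini-Hochberg adjustment.

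NRPC1 and MAF1 were higher in the short-internode dwarf. NRPC1 had 41.3 to 50.8 CPM (median 48) in the short-internode dwarf and 7.6 to 12.4 (median 8.48) in the BR-like dwarf. No plant of either group came near the other. The log2 fold change was -2.35 ± 0.12, the lowest adjusted p of the genes named here (7.1e-07; edgeR, Benjamini-Hochberg), and every fit with 1 plant left out called it. MAF1 (AT5G13240) had 43.2 to 59.6 CPM against 19.9 to 29.2, again without overlap (log2 fold change -1.12 ± 0.10, edgeR, Benjamini-Hochberg adjusted p = 0.00014). In the 17 plants without phenotype NRPC1 was at 6.25 to 18.4 CPM and MAF1 at 16.9 to 31.5, so for both the BR-like dwarf lay within that range and the short-internode dwarf above it. The study itself had named both genes as upregulated in the short-internode dwarf from these samples, and the list was chosen with that known. NRPC1 and MAF1 were the 2 called members of 10 RNA polymerase genes, against 0.194% of all tested genes called lower. The other 8, among them the second subunit of the same enzyme NRPC2 (17.2 to 23.3 CPM against 18.6 to 27.2), had log2 fold changes from -0.21 to 0.30, and the list median was -0.05.

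Other genes called lower in the BR-like dwarf without overlap varied in how the remaining plants lay. MRD1, known from a methionine-accumulating mutant, had 0.12 to 0.447 CPM against 3.81 to 6.69 (log2 fold change -4.45 ± 0.30, edgeR, Benjamini-Hochberg adjusted p = 1.3e-05). All relatives were at 0.452 CPM or below, and DMSO plants had 0.104 to 13.3. AT5G60250, a RING finger gene, had 0.371 to 1.1 CPM against 2 to 4.18, with the 17 other plants at 0.253 to 1.84 (log2 fold change -2.04 ± 0.29), so every short-internode plant lay above all others. AT5G59680, a leucine-rich repeat kinase gene, had 1.43 to 2.63 CPM in the BR-like dwarf, 9.14 to 26.1 in the short-internode dwarf and 1.75 to 31.4 in the 17 others, which took in the short-internode dwarf (log2 fold change -3.19 ± 0.27). The TIR-NBS-LRR resistance gene AT3G25510 had 0.149 to 0.818 CPM against 1.74 to 3.07, below the 17 others at 0.889 to 9.97 (log2 fold change -2.50 ± 0.33). The receptor-like protein gene RLP43 had 0.741 to 2.2 CPM against 3.63 to 7.88, with 1.65 to 11.4 in the others (log2 fold change -2.20 ± 0.32). AT2G34655, a short gene of no annotated function, had 3.85 to 10 CPM against 23.1 to 60.6 (log2 fold change -2.87 ± 0.28). The 17 other plants, at 5.98 to 28.3, overlapped the ranges of both dwarfs. AT5G05960 of the lipid transfer protein family (-2.78), AT4G24026 (-1.95) and the transporter gene ABCA10 (-1.92) complete the 12 largest falls, and these lost the call in 9, 9 and 10 of the 12 fits with 1 plant left out (edgeR, Benjamini-Hochberg adjusted p up to 0.02). RLP43 lost it in 6, and AT5G60250 without BR-like dwarf replicate 6 (adjusted p = 0.011).

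The flowering gene FT, the mobile signal made in leaves, had 2.18 to 5.91 CPM in the BR-like dwarf and 11.2 to 24.4 in the short-internode dwarf. The groups did not overlap (log2 fold change -1.91 ± 0.24, edgeR, Benjamini-Hochberg adjusted p = 0.0018). DMSO plants had 9.75 to 25.3 CPM, close to the short-internode range, while both sets of relatives spread from 1.05 to 14.2. FT was the 1 called gene of 13 tested flowering time genes, against 0.194% of all tested genes called lower. The list median was -0.21. FLC, the repressor of FT, had 0.235 to 5.18 CPM against 0.0177 to 3.77 and was not called (log2 fold change 0.94, adjusted p = 0.6, edgeR with Benjamini-Hochberg).

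Among the genes called higher in the BR-like dwarf without overlap was ESC. ESC, an AT-hook DNA-binding gene, had 2.43 to 5 CPM in 5 BR-like plants, 0.0741 in replicate 4 and 2 counts in all in the short-internode plants, a ratio of 488 (95% counting interval 135 to 4040; edgeR, Benjamini-Hochberg adjusted p = 0.0012). AT4G13577, of no annotated function, had 1.76 to 6.25 CPM against 0.144 to 0.358, and here replicate 4 was the highest plant (log2 fold change 4.01 ± 0.34, adjusted p = 7.1e-05 by edgeR and Benjamini-Hochberg). The nitrate transporter gene NRT1.8, which retrieves nitrate from the xylem, had 1.81 to 7.92 CPM against 0.075 to 0.426 (log2 fold change 4.33 ± 0.51), while relatives and DMSO plants reached 4.15. ORP4C, an oxysterol-binding protein gene, had 0.469 to 3.29 CPM against 0.0275 to 0.15 (log2 fold change 4.01 ± 0.51). The peroxidase gene AT3G21770 had 5.55 to 9.21 CPM in 5 plants, 1.062 in replicate 4 and 0.338 to 0.963 in the short-internode plants (log2 fold change 3.43 ± 0.46). BGLU46, a beta-glucosidase gene that acts on lignin precursors, had 0.469 to 4.3 CPM against 0.0821 to 0.375 (log2 fold change 3.51 ± 0.53). AT3G14060, AT3G22560, AT1G60110 and AT1G62370 complete the 12 largest rises, at log2 fold changes of 3.16 to 4.81. Of these genes, AT3G22560, AT1G60110 and AT1G62370 each lost the call in 10 of the 12 fits with 1 plant left out (adjusted p up to 0.022 by edgeR and Benjamini-Hochberg), BGLU46 in 9 and AT3G14060 in 6, none of them without BR-like dwarf replicate 4. AT1G62370 was at 0.204 to 2.59 CPM in the 17 plants without phenotype, against 0.445 to 3.61 in the BR-like dwarf and 0.0704 to 0.372 in the short-internode dwarf. PYK10, a beta-glucosidase of endoplasmic reticulum bodies and the root marker with the largest difference, had 20.1 to 37.5 CPM in 5 BR-like plants, 0 in replicate 4 and at most 0.138 in the short-internode plants (edgeR, Benjamini-Hochberg adjusted p = 0.0022). Of the other 4 root markers, SCR was at 25.5 to 34.6 CPM against 24.6 to 33.6 and RHD6 had no counts. In whole leaf RNA more cells of a type and more RNA per cell cannot be told apart.

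The name of the BR-like dwarf refers to brassinosteroids, growth-promoting steroid hormones. Of 13 tested genes of their synthesis and inactivation 1 was called, against 0.649% of all tested genes. ROT3, a cytochrome P450 of brassinosteroid synthesis that acts on leaf length, had 3.66 to 8.9 CPM in 5 BR-like plants, 0.939 in replicate 4 and 0.193 to 1.13 in the short-internode plants (log2 fold change 3.05 ± 0.49, edgeR, Benjamini-Hochberg adjusted p = 0.0062; 10 of the 12 fits with 1 plant left out lost the call). The 17 plants without phenotype had 0.655 to 6.57 CPM. The list median was 0.14, and DWF4, a rate-limiting enzyme of the pathway, had the lowest fitted value (-1.11, 9.13 to 37.6 CPM against 25.1 to 57.6). None of 10 tested genes of brassinosteroid signalling and response was called by edgeR or DESeq2, and the median was -0.11. At an unadjusted p below 0.05 stood 2 of the 10, against 4368 of all 19099 tested genes (edgeR). The lowest of the 10 was TCH4, a cell wall enzyme gene, with 2.09 to 251 CPM against 83.3 to 1195.

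Each of the other hormone lists had 0 or 1 call by edgeR with all plants, against 0.649% of all tested genes. RR16, a type A response regulator induced by cytokinin, had 3.45 to 5.37 CPM against 7.82 to 15.2 (log2 fold change -1.30 ± 0.17, edgeR, Benjamini-Hochberg adjusted p = 0.0018). The 17 plants without phenotype had 1.43 to 16.8 CPM, a range that holds both dwarfs. RR16 was the 1 call among 15 tested cytokinin genes, whose median was 0.65. At an unadjusted p below 0.05 stood 11 of these 15, 7 of them higher, against 4368 of all 19099 tested genes (edgeR). DESeq2 called 3 of the 15 higher and 1 lower. Without replicate 4 edgeR also called the cytokinin synthesis gene IPT3 (1.40, Benjamini-Hochberg adjusted p = 0.0095) and the breakdown gene CKX1 (2.73, adjusted p = 0.00033) higher. PBS3, an enzyme gene of salicylate synthesis, had 0.539 to 2.11 CPM against 3.11 to 5.77 (log2 fold change -1.80 ± 0.31, edgeR, Benjamini-Hochberg adjusted p = 0.009; 10 of the 12 fits with 1 plant left out lost the call). The 17 plants without phenotype had 1.08 to 47.2 CPM, which overlapped both dwarfs. PBS3 was the 1 call among 14 tested salicylate genes, with a list median of -0.43. The highest fitted value of that list was PR1 at 7.25, which came from 1 plant, BR-like dwarf replicate 1 (97.4 CPM, at most 2.29 in the other 11), and was not called. Gibberellin genes (20 tested, median 0.44), auxin genes (20, median -0.07) and jasmonate genes (20, median 0.03) had 0 calls by edgeR, with 15, 5 and 3 genes at an unadjusted p below 0.05, while DESeq2 called 4, 2 and 1. Among them GA3OX1, which makes active gibberellin, had 0.503 to 3.34 CPM against 3.41 to 9.45 without overlap (log2 fold change -2.10, adjusted p = 0.027 by edgeR and Benjamini-Hochberg), and GA20OX1, the step before, a fitted 2.19. Without replicate 4, GA3OX1 was called lower (-2.67, adjusted p = 0.0011) and RGL3, a DELLA repressor gene, higher (2.40, adjusted p = 0.00069), as were the auxin-conjugating enzyme genes GH3.3 (4.93, adjusted p = 0.0034) and WES1 (3.37, adjusted p = 0.00051; edgeR, Benjamini-Hochberg).

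**Figure D4:**
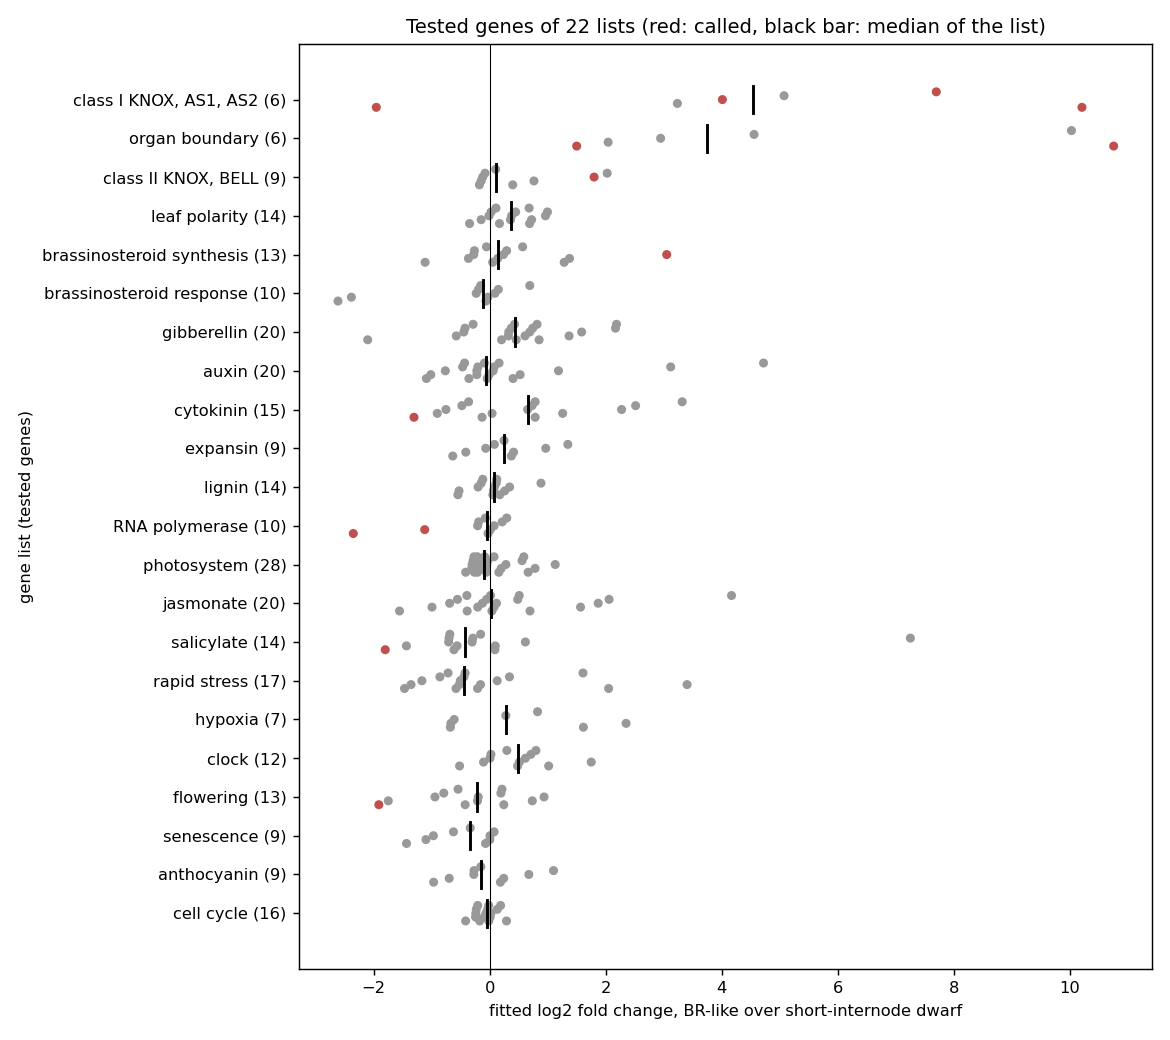
Fitted log2 fold change (BR-like over short-internode dwarf) of each tested gene in 22 gene lists, 1 line per list with the number tested in parentheses; called genes are red and the black bar is the median. Medians of the class I KNOX list with AS1 and AS2 (4.54) and the boundary list (3.75) lie away from 0, and the other 20 lie between -0.44 and 0.65.

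Of the 22 pathway lists 14 had no call by edgeR, and 8 had none once replicate 4 was left out. Nuclear photosystem genes, 28 tested, had a median of -0.10, 0 calls by edgeR and 1 by DESeq2. At an unadjusted p below 0.05 stood 8 of the 28, against 4368 of all 19099 tested genes (edgeR). The highest of the 28, the antenna gene LHB1B1, had 4549 to 11620 CPM against 2732 to 4950 (log2 fold change 1.13, adjusted p = 0.028, edgeR with Benjamini-Hochberg), and was called without replicate 4 (1.25, adjusted p = 0.0069). None of 16 tested cell cycle genes had even an unadjusted p below 0.05, and their values ran from -0.41 to 0.29. Lists of expansin, lignin, rapid stress, hypoxia, clock, senescence and anthocyanin genes had medians from -0.44 to 0.50. Without replicate 4, 3 of the 7 tested hypoxia genes were called higher, ADH1 (1.03), LBD41 (1.78) and AT5G15120 (2.61), and of the 17 rapid stress genes WRKY40 was called lower (-1.51; edgeR, Benjamini-Hochberg adjusted p = 0.0098). In that fit 2.26% of all tested genes were called. Among the 6 lists of cell type markers PYK10 was the 1 call by edgeR, and DESeq2 called 1 floral marker higher as well. Vascular markers summed to 338 to 426 CPM in the BR-like dwarf and to 386 to 576 in the short-internode dwarf, and epidermal markers to 1068 to 1722 and 639 to 2525; their part in the results was not tested.

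The stretch of chromosome 2 between AT2G33720 and AS1, in which the study placed the inversion of the BR-like dwarf, holds 310 tested genes. Of these 7 were called (2.26%), 2 higher and 5 lower, against 0.649% of all tested genes, and the median was -0.01. The study, which compared BR-like dwarf with plants lacking the phenotype, had reported the inversion enriched for differing genes by a permutation test. Without replicate 4, 18 genes of the stretch were called, when 2.26% of all tested genes were. Of the 7, AS1 and AT2G34655 are described above, and the other 5 were looked up after their values were seen. The transcription factor gene WRKY35 was at 0 to 5.14 CPM (median 4.42) against at most 0.205, and the ubiquitin ligase gene ATL9 at 0.766 to 2.75 against 0.179 to 0.45. The glucosyltransferase genes UGT73C1 and UGT73C6, close relatives in 1 gene cluster whose reads may be shared between them, were at no more than 0.047 CPM against 0.33 to 1.93 and at 1.26 to 2.18 against 3.3 to 10. AT2G36090 had 0.758 to 1.75 CPM against 2.46 to 4.08. In DMSO plants ATL9 (0.259 to 2.47 CPM), UGT73C1 (0 to 3.54), UGT73C6 (0.89 to 13.98) and AT2G36090 (1.03 to 4.87) overlapped both dwarfs. Relatives of the BR-like dwarf lay apart from it in ATL9 (0.222 to 0.516), UGT73C1 (0.0904 to 1.11) and AT2G36090 (2.47 to 6.42). In UGT73C6 these relatives (1.47 to 4.86 CPM) overlapped it. WRKY35 was at most 0.351 CPM in relatives and DMSO plants. AT2G33720 itself, a gene of the B3 family at the far end, had 0.54 to 2.69 CPM in 5 BR-like plants, 0 in replicate 4 and no counts in the short-internode plants, at least 111-fold higher over the group. It was not called (edgeR, Benjamini-Hochberg adjusted p = 0.026) and was called without replicate 4 (adjusted p = 0.0015).

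Further genes had been named in the study or in earlier results of these data. AT3G29631 had 8.53 to 19.9 CPM against 1.81 to 6.47 and at most 4.04 in the 17 other plants (log2 fold change 2.09 ± 0.32, edgeR, Benjamini-Hochberg adjusted p = 0.0048), and replicate 4 was among the high plants at 17.2 CPM. The call was lost in 8 of the 12 fits with 1 plant left out, at an adjusted p of up to 0.016 (edgeR, Benjamini-Hochberg). AT1G16500 did not overlap either, but within the BR-like dwarf it split by family, with 15.3 to 19.4 CPM in 1A_14 and 6.44 to 8.58 in 1A_20 against 3.56 to 6.05. It was not called (log2 fold change 1.34 ± 0.29, adjusted p = 0.023 by edgeR and Benjamini-Hochberg) and was called without replicate 4 (1.46, adjusted p = 0.0072). AT2G30620, a linker histone gene, split in the same way, with 134 to 143 CPM in 1A_14 and 74.3 to 107 in 1A_20 against 66.3 to 82.8 (0.58 ± 0.16, adjusted p = 0.054, edgeR with Benjamini-Hochberg). The MADS-box gene AT1G59930 and the sulfate transporter gene AST91 differed little between the dwarfs (0.30 ± 0.24 and 0.27 ± 0.16, not called). Both dwarfs nevertheless lay apart from the 17 other plants in AT1G59930, at 1.58 to 5.66 CPM against 0.107 to 1.27. The receptor kinase gene CRK36 (-1.02 ± 0.33) and the cellulose synthase-like gene CSLG3 (-2.24 ± 0.50) were not called.

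Since each dwarf has relatives of its own line, the difference between dwarf and relatives was also compared between the lines. Between the relatives 1 of 19787 genes was called (0.00505%; edgeR), AT1G56300, an uncharacterised gene at 37.2 to 63.6 CPM against 19.5 to 26.4 (log2 fold change 1.09 ± 0.16, edgeR, Benjamini-Hochberg adjusted p = 0.0079), while DESeq2 called 182 and 4740 had an unadjusted p below 0.05. The difference of the dwarf-against-relative differences was called in 11 genes (0.0556%; edgeR), 5 positive and 6 negative, and DESeq2 called 178. Of the 11, 8 were also called between the dwarfs. The most significant was NRPC1 (-2.78 ± 0.25, edgeR, Benjamini-Hochberg adjusted p = 3.5e-07), in which the short-internode dwarf lay at 41.3 to 50.8 CPM and its relatives at 6.25 to 10.3. MAF1 followed the same order (-1.44 ± 0.22). AS1 had -2.86 ± 0.48 (adjusted p = 0.005, edgeR with Benjamini-Hochberg), where the BR-like dwarf was low and its relatives high. Without short-internode relatives 1 and 2 and DMSO replicate 2, which stood apart in earlier results, AS1 and the bHLH gene PIL1 lost this call (edgeR, Benjamini-Hochberg adjusted p = 0.011 and 0.043), the count was again 11, and AT1G56300 lost its call between the relatives (adjusted p = 0.062, same test). RPL had 1.50 ± 0.23, AT2G34655 -2.81 ± 0.48, ESC a fitted 10.20, ORP4C 5.90 and the sulfate transporter gene SULTR3;5 5.14, and the fitted values of ESC and ORP4C, which have few counts in the low groups, depend on the prior count.

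The 3 genes called in this contrast and not between the dwarfs were AT1G68600, GDPD5 and PIL1. GDPD5, a phosphodiesterase gene of membrane lipid breakdown, had 10.2 to 15.7 CPM in the BR-like dwarf and 29.9 to 35.6 in its relatives, and 20 to 26.8 against 14.7 to 27.6 in the other line (-1.51 ± 0.21, edgeR, Benjamini-Hochberg adjusted p = 0.00082). AT1G68600 had 63.8 to 123 CPM in the BR-like dwarf below 195 to 228 in its relatives, and 108 to 191 in the short-internode dwarf above 70.8 to 96.8 in its relatives (-1.90 ± 0.30), so the dwarfs lay on opposite sides of their relatives. PIL1, a relative of the phytochrome interacting factors, reached 4.3 CPM in the BR-like dwarf and 9.73 in 1 short-internode relative. LOB, STM and KNAT1 were not called here, at fitted values of 12.59, 8.63 and 7.68 (adjusted p = 0.33, 1.00 and 0.039 by edgeR and Benjamini-Hochberg), and those of LOB and STM depend on the prior count. With replicate 4 left out, 40 genes were called. Other libraries also moved the count of 11 by more than 1.5 times: it was 7 without short-internode dwarf replicate 1 or 4, BR-like dwarf replicate 3 or 5, 6 without short-internode dwarf replicate 5, BR-like dwarf replicate 6 or short-internode relative 4, and 5 without BR-like relative 1.

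**Figure D5:**
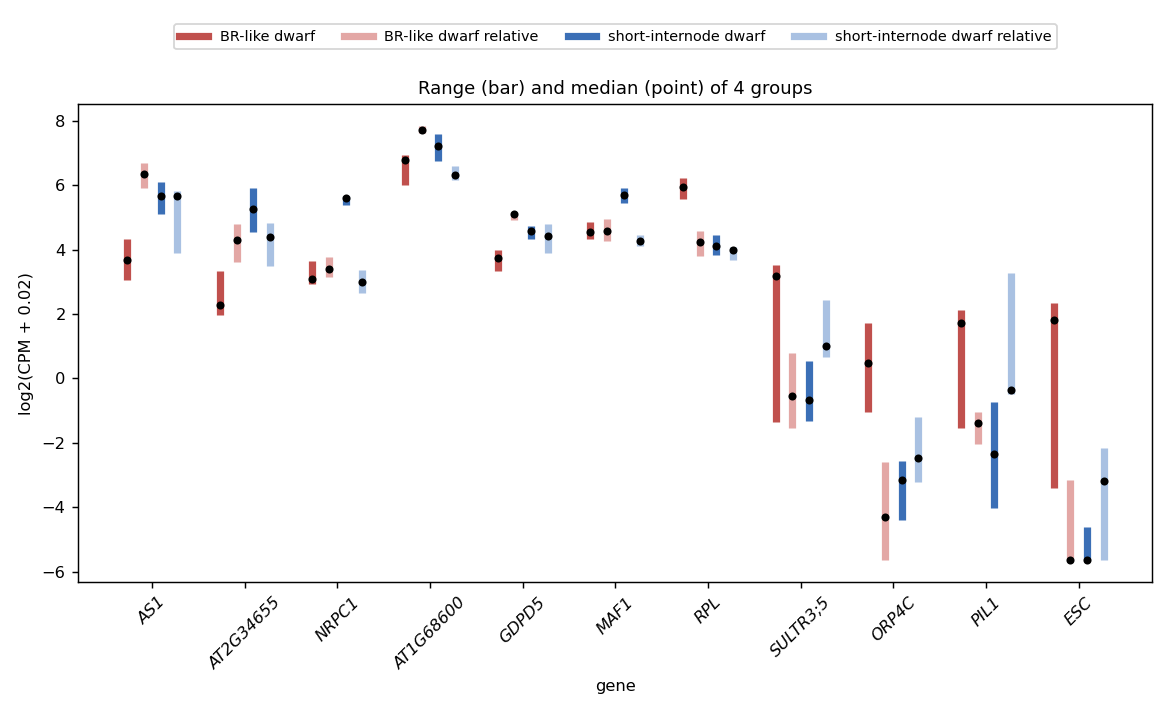
Range (bar) and median (point) of log2(CPM + 0.02) for the 11 genes called in the difference of the dwarf-against-relative differences, in BR-like dwarf plants (n = 6), their relatives (n = 4), short-internode dwarf plants (n = 6) and their relatives (n = 4). NRPC1 and MAF1 stood out in the short-internode dwarf and RPL in the BR-like dwarf, whereas AS1 was low in the BR-like dwarf.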

How the data were processed

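Rosette leaf RNA was sequenced from directional libraries. The authors trimmed reads (Trim Galore) and obtained estimated counts per gene with Salmon on Araport11 transcripts, with Col-CEN v1.2 as decoy sequence. The deposited table holds these estimated counts unnormalized (9.27% not whole, rounded here). Deposited tables of the authors' DESeq2 comparisons hold fold changes and p-values and were not used. Genes were kept if 4 or more libraries reached 10 normalized counts, and were tested with edgeR 4.0.16 (quasi-likelihood, TMM, prior count 0.125) in R 4.3.3 with Benjamini-Hochberg adjustment. Alternatives used DESeq2 1.42.0 and limma 3.58.1. Direct comparisons were fitted on the 12 dwarf plants, others on 5 groups (29 libraries), which also set the CPM scale. The fits were tested on simulated data.

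Members and gene lists (351 of 352 entries paired) were chosen with earlier results of these data known. Named were the 12 largest rises and falls among called, non-overlapping genes averaging at least 1 CPM in the higher group, called list members, class I KNOX and boundary genes, and genes the study named. A count of 0 allows 3 counts, and intervals cover counting error only. Of 27501 identifiers 27391 were found in TAIR10.1, and no positions were converted between genomes. Deviations of same-numbered plants correlated at -0.23 to 0.22, so numbers were not taken as pairs. Plants of 1 family share an M2 parent. The main edgeR fits held no term for family and took plants as independent. Their p-values therefore measure the spread among plants of a group, within and between families.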

Additional observations from a re-analysis of the deposited data

Results flagged for a closer look

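Among 94 groups of 6 plants checked, 1 plant lay far from the others of its group in 15, and chance gives about 1 in 20. BR-like dwarf replicate 4 was that plant in 5 of them, with 0.692 CPM in KNAT1, 0 in STM, 0 in AS2, 0 in LOB and, as the highest, 5.66 in AT1G59930. The other BR-like dwarf plants were replicate 1 in CSLG3 (0.56 CPM), replicate 2 in MRD1 (0.447) and replicate 6 in AT4G24026 (0.16). In the short-internode dwarf they were replicate 1 in STM (0.0275) and PYK10 (0.138), replicate 2 in AT3G22560 (0.213), replicate 3 in LOB (0.0672), replicate 5 in KNAT2 (0.185), and replicate 6 in CUC3 (0.0938) and AT3G25510 (1.74), and all but the last of these levels are a few counts in a group at or near 0.

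Differences between dwarf and relatives differed between the lines, by a test of the difference itself, in 7 of the named genes. On the log2 scale the values were 10.20 for ESC, 5.90 for ORP4C, 1.50 for RPL, -1.44 for MAF1, -2.78 for NRPC1, -2.81 for AT2G34655 and -2.86 for AS1 (edgeR, Benjamini-Hochberg, adjusted p at most 0.0053). With both short-internode relatives and the DMSO plant that stood apart left out, AS1 was at -2.63 with an adjusted p of 0.011.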

How the results depend on the processing

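Between the dwarfs 124 genes were called. The count was 467 at an adjusted p below 0.05, 545 with DESeq2 (which included all 124), 37 with limma-voom, 13 with limma-voom and the M2 family as a random block, and 43 to 431 with 1 plant left out. Family 1A_14 alone gave 740 calls against 34C_6 (242 higher, 498 lower) and 150 against 34C_7 (87 higher, 63 lower), while 1A_20, which holds replicate 4, gave 0 against 34C_6 and 0 against 34C_7 (1959 and 2494 at an unadjusted p below 0.05), and counts summed per family gave 0 (2410; edgeR). Chosen after seeing the data, leaving out both libraries that stood apart gave 359, and DESeq2 without replicate 4 gave 837. The 11 calls in the difference of differences became 161 at an adjusted p below 0.05, 178 with DESeq2 and 5 to 40 with 1 plant left out. The 1 call between relatives became 193 at an adjusted p below 0.05, 182 with DESeq2, 0 with DESeq2 size factors, and 0 to 3 with 1 plant left out. With the replicate number as a block the counts were 20, 2 and 0; the labels do not say that same-numbered plants are paired. Other filters, size factors and robust estimation changed the other counts by less than 1.5 times.

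No called named gene changed direction in any alternative fit. Counted over 34 called genes in 24 to 29 fits each, 305 of 949 results lost the call. The fits reuse the same plants. Of the named genes not called, AST91 was at -0.10 for 1A_14 against 34C_7, ACT1 at 0.15 for 1A_14 against 34C_6 and AT1G59930 at -0.0096 without both libraries that stood apart. The cause of these shifts was not tested. Depth of 39631454 counts or more per plant left 3 of 9 boundary genes below the filter.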
